A study of Mus musculus with 3 samples.

Results

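The organic ion and monocarboxylate transporters are membrane carriers of the SLC16, SLC22, SLC47 and SLCO gene families. Members were taken by symbol, as every gene named Slc16a, Slc22a or Slc47a with a number, or Slco with a number. The rule gave 56 of the 24346 genes listed, 14 of them in SLC16, 25 in SLC22, 2 in SLC47 and 15 in SLCO. They were read in 3 RNA sequencing libraries of mouse intestinal epithelial cells, 1 each from large intestine, upper small intestine and lower small intestine. Cells of all 3 regions were released with 5 mM EDTA at 37 °C for 20 min, with no sorting step given in the labels, and the labels name no experimental treatment. Genotype, age and number of animals per library are not given in the labels for any group. A strain entry is given for the upper library and for no other, and it names MC38, a colorectal cancer model. Should that entry hold, a difference of strain and a difference of region cannot be told apart wherever that library is used.

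These families move small charged molecules that cross lipid membranes poorly. SLC16 proteins carry monocarboxylates such as lactate and the short-chain fatty acids made by gut bacteria, and some members carry thyroid hormone, aromatic amino acids, creatine or carnitine. SLC22 proteins carry organic cations, organic anions, urate and carnitine. SLC47 proteins exchange organic cations for protons, and SLCO proteins carry large organic anions such as prostaglandins, steroid sulfates and many drugs. Absorptive cells place some of these carriers on the luminal brush border and others on the basolateral side.

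All values are FPKM, fragments relative to transcript length and to library size. A value of 0 means that the gene was listed at 0, which can also be a failed estimate. Judged from the steps between low values, a 2 kb transcript at 1 FPKM rested on about 16.8 reads in large, 14.6 in upper and 21.9 in lower small intestine. The 7 epithelial markers summed to 7484 FPKM in large, 5377 in upper and 7498 in lower small intestine. Markers of other cell types were far lower, but those of white blood cells differed between regions. The 4 T cell markers present in the files summed to 2.74 FPKM in large intestine against 38.2 in upper and 37.5 in lower small intestine. The corresponding sums were 0.097, 29.3 and 26.8 FPKM for 4 B and plasma cell markers, and 1.77, 10.7 and 14.4 FPKM for 5 macrophage and dendritic cell markers. Ms4a1, Jchain and Mzb1, of the B and plasma cell list, were listed at 0 in large intestine.

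Of the 56 members, 22 reached 1 FPKM in at least 1 library, 15 stayed above 0 but below 1 FPKM, and 19 were listed at 0 in all libraries. Of all 24346 genes, 12579 reached 1 FPKM in at least 1 library and 7096 were listed at 0 in all. Among members, 19 reached 1 FPKM in large intestine, 21 in upper and 19 in lower small intestine. All members together summed to 313 FPKM in large, 394 in upper and 267 in lower small intestine. The large intestinal sum was the most concentrated, with 76.4% in its 5 most abundant members, against 58.1% in upper and 55.0% in lower small intestine. The most abundant member was Slc16a1 in large intestine, at 94.9 FPKM. In the small intestine it was Slc16a5, at 58.8 FPKM in upper and 39.3 FPKM in lower.

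**Figure D1:**
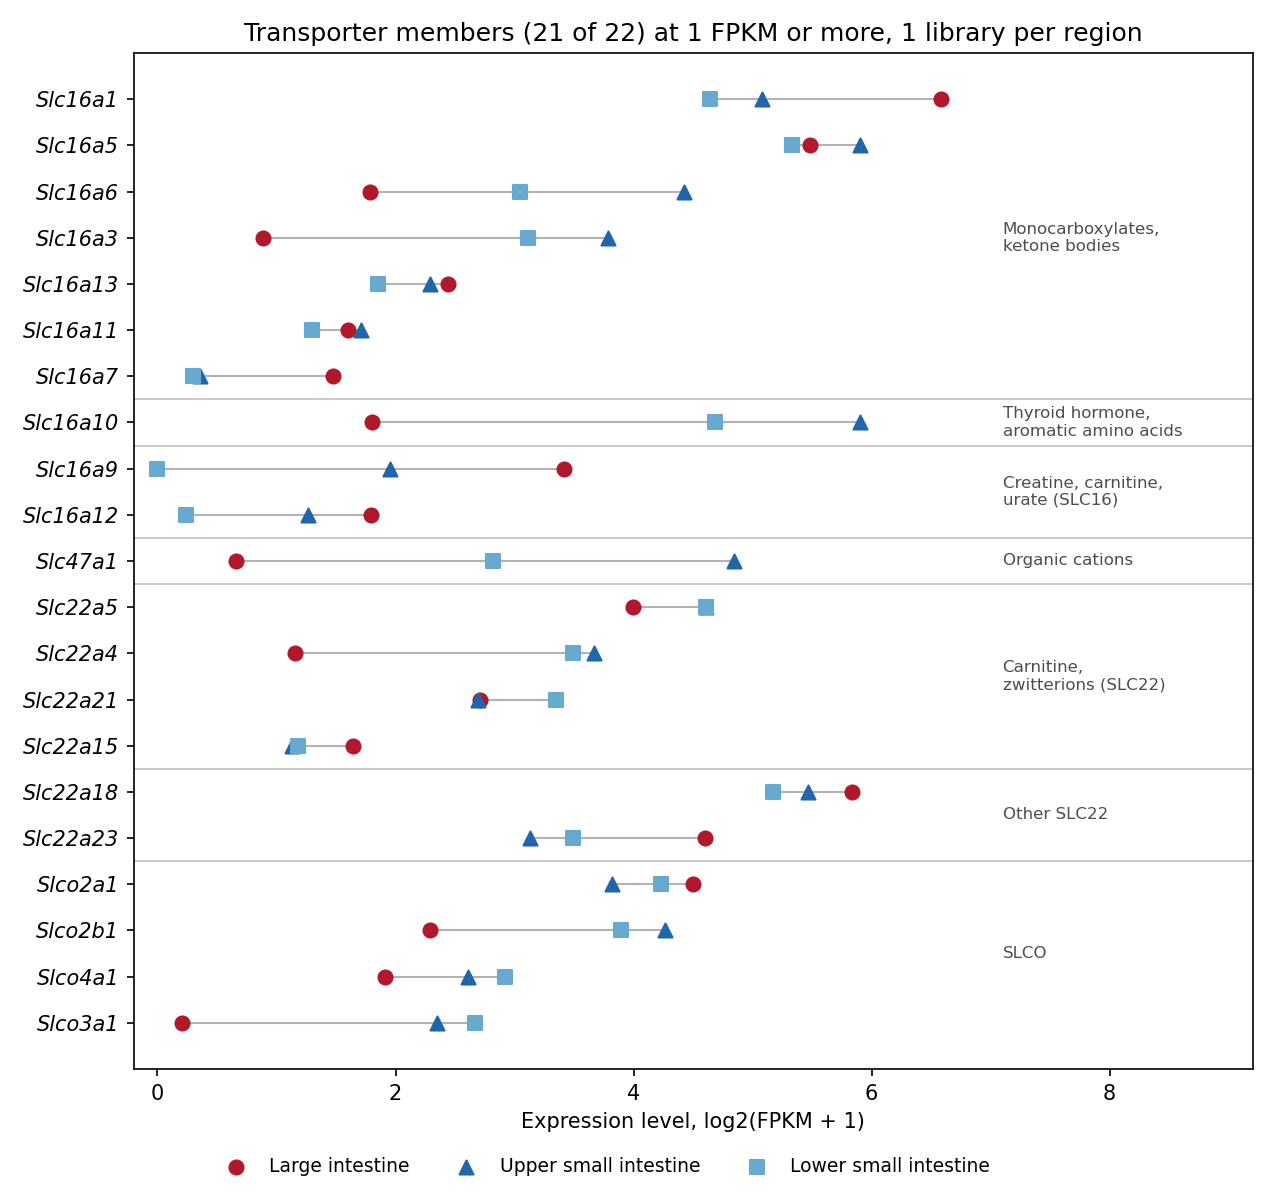
Expression level, as log2(FPKM + 1) on the horizontal axis, of 21 of the 22 members at 1 FPKM or more, grouped by what they carry, with 1 point per library and region. Large intestine lies furthest right for Slc16a1 (94.9 FPKM) and furthest left for Slc16a10, Slc47a1, Slc22a4 and Slco3a1, and the upper and lower points of Slc22a5 coincide.

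Summed by what they carry, the families had different regional profiles. Members for monocarboxylates and ketone bodies summed to 151 FPKM in large, 132 in upper and 83.3 in lower small intestine. The SLC22 members for carnitine and zwitterions summed to 23.9 FPKM in large, 41.8 in upper and 44.1 in lower small intestine. SLCO members summed to 28.7 FPKM in large, 41.03 in upper and 44.02 in lower small intestine. Large intestine thus held the largest sum for monocarboxylate carriers and the smallest for the SLC22 carnitine group and SLCO. Slc16a1 alone made up 63.0% of the large intestinal monocarboxylate sum, and without it large intestine would not hold the largest sum.

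**Figure D2:**
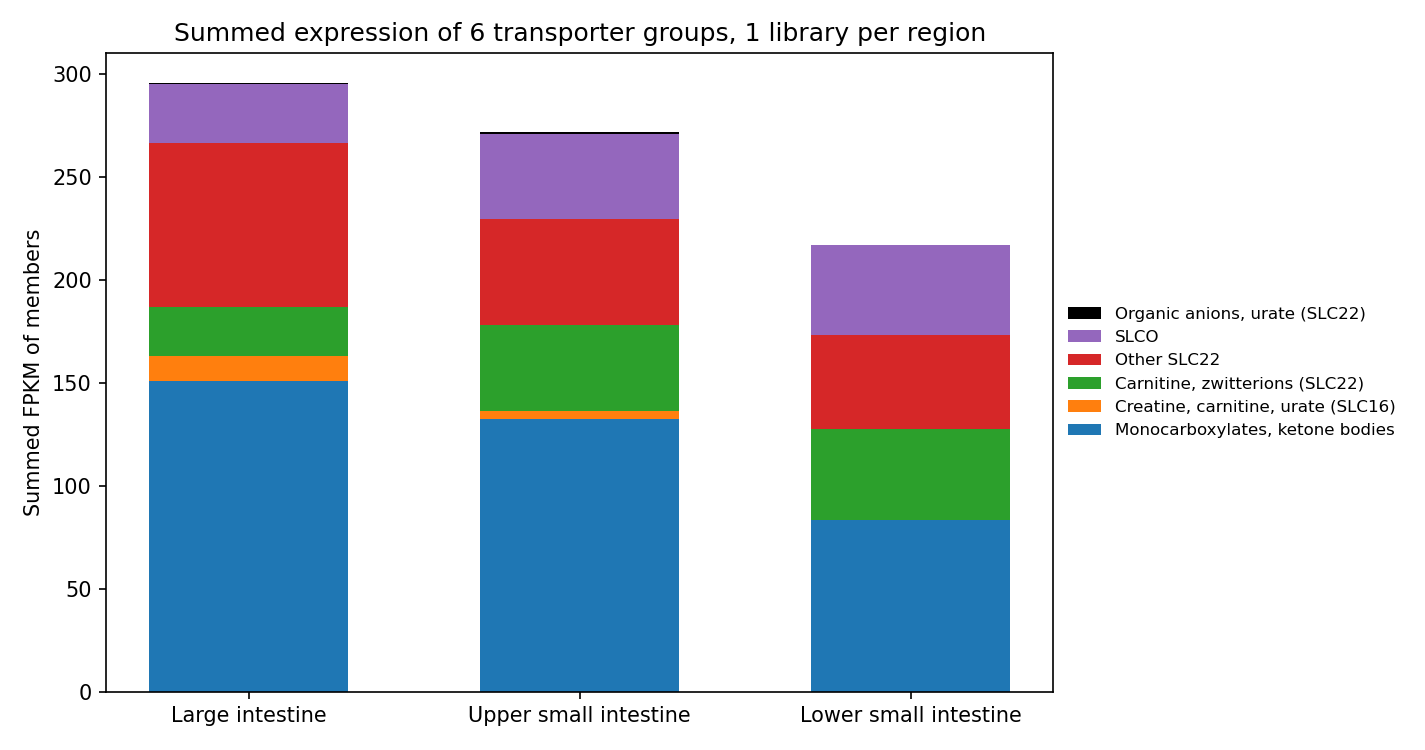
Summed FPKM of members by what they carry, for 6 groups of members (stacked bars from 0, 1 library per region). Monocarboxylate carriers are the lowest block of each bar, at 151 FPKM in large, 132 in upper and 83.3 in lower small intestine, and SLCO members sum to 28.7, 41.03 and 44.02 FPKM.

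Regions were compared by subtracting log2(FPKM + 1) values, a scale on which low genes differ by less than their true ratio. A member counted as measured when either library of the pair held at least 1 FPKM. It was called higher or lower when FPKM + 1 differed at least 2-fold, a difference of 1 on this scale. Each region has 1 library, so these calls have no replicate check and no p-value was computed. In large against upper intestine, 4 of 22 measured members were higher and 8 lower, where 11.2% of all measured genes were higher and 11.7% lower. In large against lower intestine, 5 of 22 were higher and 8 lower, where 9.75% and 10.5% of all measured genes were. Members were thus called lower in 36.4% of cases in both comparisons, which share the large intestinal library. In upper against lower small intestine, 5 of 21 members were higher and none lower, against 3.92% and 2.92% of all measured genes.

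The median difference of measured members was -0.26 in large against upper, -0.10 in large against lower and 0.41 in upper against lower small intestine. The all-gene medians were 0.00057, -4.5e-05 and -0.03 in the same comparisons. The deposited libraries were close to a common scale but differed in their sums. Rescaling each library to the same sum moved the all-gene medians by 0.37, 0.28 and -0.09, and the share of called genes that were higher became 69.0%, 64.0% and 51.5%, against 49.0%, 48.2% and 57.3% as deposited. In large against upper, 5 of 22 members were then higher and 7 lower, where 17.8% and 8.01% of all measured genes were. Large against lower had 5 of 22 higher and 7 lower, where 14.2% and 8.01% of genes were. Upper against lower had 4 of 21 higher and none lower, where 3.39% and 3.19% of genes were. No called member changed direction under any scaling tried.

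Of the 22 measured members, 4 were highest in large intestine by 1 log2 unit or more over both other libraries, where 7.84% of all genes were. They were Slc16a1, Slc16a7, Slc16a9 and Slc22a23. Highest in upper small intestine by that margin were 3 members, Slc16a10, Slc16a6 and Slc47a1, where 2.66% of all genes were. No member was highest in lower small intestine by that margin, where 1.32% of genes were. Lowest in large intestine by 1 log2 unit or more were 7 members, where 7.52% of genes were. These were Slc16a10, Slc16a3, Slc16a6, Slc22a4, Slc47a1, Slco2b1 and Slco3a1. Lowest in lower small intestine were 2 members, Slc16a9 and Slc16a12, where 0.739% of genes were, and no member was lowest in upper small intestine, where 1.27% were.

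**Figure D3:**
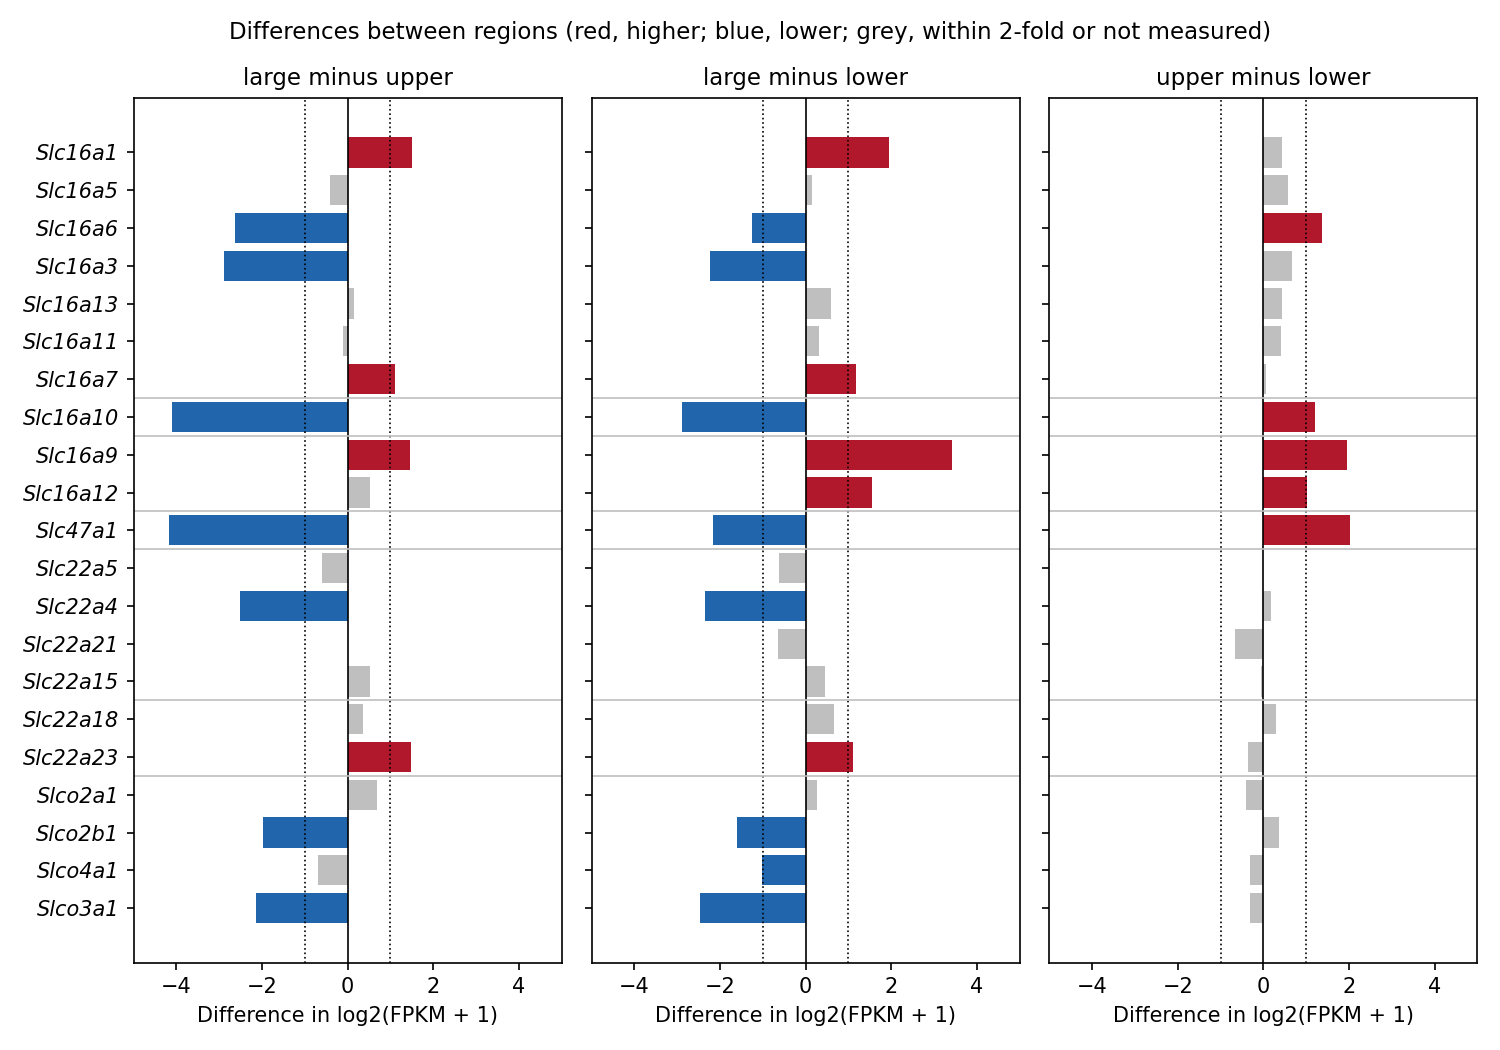
Difference in log2(FPKM + 1) for 21 of the 22 members in large minus upper, large minus lower and upper minus lower small intestine, with dotted lines at differences of 1 and -1. Blue bars in the left and middle panels mark members lower in large intestine, 8 of them in the middle panel, and the right panel holds 5 red bars and no blue one.

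Among carriers of monocarboxylates and ketone bodies, the large intestine was higher for 2 of 7 measured and lower for 2 against each part of the small intestine. Slc16a1, on chromosome 3 at 104638668 to 104658462 (mm10, plus strand), encodes MCT1, which carries lactate, pyruvate and butyrate together with a proton. It stood at 94.9 FPKM in large intestine, 32.7 in upper and 24.04 in lower small intestine. Its large intestinal level was 2.90 times (2.71 to 3.11) the upper and 3.95 times (3.69 to 4.22) the lower level. Bracketed ranges of ratios are 95% Clopper-Pearson intervals, built on the reads that the FPKM imply for the shortest coding transcript, and they hold counting error only. A longer transcript would imply more reads and a narrower interval, so implied reads are minimum figures for members with transcripts of unequal length. Upper exceeded lower small intestine by 1.36 times (1.25 to 1.48), more than counting error but within 2-fold.

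Slc16a3, which encodes MCT4, a lactate exporter of glycolytic cells, was instead lowest in large intestine. It was at 0.851 FPKM in large intestine, 12.8 in upper and 7.64 in lower small intestine. About 3 implied reads of the shortest coding transcript (353 nt, longest 4335 nt) lay behind the large intestinal value. Its ratio was 0.067 (0.016 to 0.252) to upper and 0.111 (0.025 to 0.421) to lower small intestine. Upper and lower differed by 1.67 times (0.977 to 2.80), and whether this exceeds counting error depends on the transcript length taken. Slc16a3 is also used by white blood cells, whose markers were likewise lower in large intestine (T cell sum 2.74, 38.2 and 37.5 FPKM in large, upper and lower), and their part in the difference was not tested. In bulk libraries, fewer cells of a type and less RNA per cell cannot be told apart.

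Slc16a6, or MCT7, exports ketone bodies from the liver in zebrafish. It was lowest in large intestine, at 2.46 FPKM, and highest in upper small intestine, at 20.4 FPKM, with 7.28 FPKM in lower. The steps were above counting error, with ratios of 0.12 (0.054 to 0.247) for large to upper and 2.81 (1.84 to 4.42) for upper to lower. Exons of Slc16a6 overlap those of Amz2 and Arsg on the opposite strand, and whether counting used strand is not given in the sources used here, so reads of these genes may not be told apart. Slc16a7 encodes MCT2, a carrier with high affinity for lactate and pyruvate. It was at 1.77 FPKM in large intestine against 0.284 in upper and 0.228 in lower small intestine. On its shortest coding transcript (711 nt, longest 10981 nt), only 1 or 2 implied reads lay behind each small intestinal value. The ratio of large to upper was 6.25 (1.39 to 412), an interval that would be narrower on a longer transcript. Exons of Slc16a7 also overlap another gene on the opposite strand.

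The other measured carriers of this group, Slc16a5, Slc16a11 and Slc16a13, differed by less than 2-fold. Slc16a5, or MCT6, known in human for carrying drugs such as bumetanide, was at 43.7 FPKM in large intestine, 58.8 in upper and 39.3 in lower small intestine. Upper exceeded lower by 1.50 times (1.24 to 1.81). An antisense gene overlaps exons of Slc16a5. On the shortest coding transcript (516 nt, longest 2062 nt), large and lower did not differ beyond counting error (1.11, 0.912 to 1.36). The genes Slc16a11 and Slc16a13 are neighbours on chromosome 11. Slc16a13 was at 4.42 FPKM in large, 3.89 in upper and 2.61 in lower small intestine, and Slc16a11 at 2.04, 2.27 and 1.47 FPKM. On their shortest coding transcripts, none of their differences exceeded counting error. These are 388 nt for Slc16a11 and 348 nt for Slc16a13, and the longest ones, of 1938 and 2531 nt, would imply more reads. The sign for Slc16a11 in large against upper turned when libraries were rescaled to equal sums. Slc16a8, which encodes MCT3 of the retinal pigment epithelium, and the less studied Slc16a4 stayed below 1 FPKM, at most 0.555 and 0.571 FPKM, both in upper small intestine.

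The aromatic amino acid carrier Slc16a10 was higher in both parts of the small intestine than in large intestine. Slc16a10, on chromosome 10 at 40033532 to 40142258 (minus strand), encodes TAT1, a basolateral carrier of tryptophan, tyrosine and phenylalanine. It was at 2.49 FPKM in large intestine, 58.7 in upper and 24.8 in lower small intestine. The large to upper ratio was 0.042 (0.022 to 0.078), the large to lower ratio 0.10 (0.053 to 0.188), and the upper to lower ratio 2.37 (1.93 to 2.93). All 3 libraries were thus apart by more than counting error and by the 2-fold rule.

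Thyroid hormone handling genes were counted from a list. Of 6 measured, none was higher and 3 were lower in large against upper, where 11.2% and 11.7% of all measured genes were. In large against lower intestine 1 was higher and 2 lower, where 9.75% and 10.5% of genes were. Slc7a8, the light chain of a neutral amino acid exchanger that works beside TAT1, was at 4.42 FPKM in large intestine, 165 in upper and 40.3 in lower small intestine. Its heavy chain partner Slc3a2 was at 19.5 FPKM in large, 159 in upper and 79.3 in lower small intestine. Crym, which encodes a thyroid hormone binding protein, was at 1.14 FPKM in large, 3.71 in upper and 2.57 in lower small intestine. Dio1, a deiodinase that converts thyroxine to its active form, was at 40.7 FPKM in large, 35.9 in upper and 15.6 in lower small intestine.

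Both members for creatine, carnitine and urate were lowest in lower small intestine. Slc16a9, on chromosome 10 at 70245100 to 70285968 (plus strand), encodes MCT9, known in human as a carnitine exporter. It was at 9.65 FPKM in large intestine and 2.88 in upper, and was listed at 0 in lower small intestine. The large to upper ratio was 3.35 (2.61 to 4.35), and about 79 implied reads lay behind the upper value. Its exons overlap an antisense gene. Slc16a12, which encodes a creatine carrier, was at 2.47 FPKM in large, 1.41 in upper and 0.184 in lower small intestine. Upper exceeded lower by 7.64 times (3.66 to 19.4), yet its difference of 1.02 fell below 1 when libraries were rescaled to equal sums.

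The organic cation exporter Slc47a1 had its highest level in upper small intestine. Slc47a1, on chromosome 11 at 61343401 to 61378345 (minus strand), encodes MATE1, which exports organic cations in exchange for protons. It was at 0.584 FPKM in large intestine, 27.7 in upper and 6.06 in lower small intestine. Its margin in upper small intestine was 2.02 log2 units over the next library, and the upper to lower ratio was 4.56 (3.34 to 6.30). Against upper, the large intestinal ratio was 0.021 (0.0056 to 0.054).

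Slc22a2, Slc22a3 and Slc47a2 were below 1 FPKM. Slc22a3, or OCT3, was at 0.497 FPKM in large, 0.419 in upper and 0.638 in lower small intestine. Slc22a2, the kidney carrier OCT2, and Slc47a2 reached no more than 0.056 and 0.058 FPKM. Slc47a1 and Slc47a2 are neighbours on chromosome 11, and of this pair Slc47a1 alone was measured. Pancreatic acinar markers were found in the upper library, with Cpa1 at 4.85 FPKM, Prss2 at 6.50 and Pnlip at 8.63, all listed at 0 in the others, and their part in the upper small intestinal values was not tested. Of that list Cela1 alone was higher in large intestine, at 227 FPKM against 12.9 in upper and 5.71 in lower small intestine.

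Carnitine and zwitterion carriers of SLC22 include 3 neighbours on chromosome 11 between 53864542 and 54028090. Slc22a4 encodes OCTN1, a carrier of the antioxidant ergothioneine. It was at 1.22 FPKM in large intestine, 11.7 in upper and 10.2 in lower small intestine. The ratio was 0.104 (0.064 to 0.159) for large to upper and 0.119 (0.074 to 0.182) for large to lower, while upper and lower did not differ beyond counting error (1.15, 0.946 to 1.39). OCTN1 is also found in white blood cells, whose marker sums are given above, and their part in the difference was not tested. Slc22a5 encodes OCTN2, the main carnitine uptake carrier. It was at 14.98 FPKM in large intestine against 23.39 in upper and 23.41 in lower small intestine, a ratio of 0.640 (0.560 to 0.732) to upper. Slc22a21, or Octn3, another carnitine carrier of the mouse, was at 5.53 FPKM in large and 5.47 in upper, and highest in lower small intestine, at 9.21 FPKM.

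Slc22a5 and Slc22a21 are close copies. Of the 50-base stretches in their longest coding transcripts, 27.1% of those of Slc22a5 and 24.2% of those of Slc22a21 also occur in another gene, nearly all in each other. Their separate values are therefore uncertain. Slc22a4 shared 2.98%, and 18 other measured members shared less than 1% of such stretches. Slc22a15, a zwitterion carrier in human, was at 2.12 FPKM in large intestine, 1.19 in upper and 1.27 in lower small intestine. Slc22a16, the carnitine carrier of testis, was listed at 0 throughout.

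Of the 4 other SLC22 members, 2 reached 1 FPKM, Slc22a18 and Slc22a23. Slc22a18, an imprinted gene on chromosome 7 at 143473736 to 143499334 (plus strand), was the second most abundant member in large intestine. It was at 55.95 FPKM in large, 43.3 in upper and 35.1 in lower small intestine, with a large to lower ratio of 1.59 (1.43 to 1.78). Slc22a23, on chromosome 13 at 34179158 to 34345182 (minus strand), whose substrate is not settled, was at 23.3 FPKM in large intestine, 7.76 in upper and 10.2 in lower small intestine. Large exceeded upper by 2.99 times (2.64 to 3.41) and lower by 2.28 times (2.06 to 2.52). Slc22a17 stayed at or below 0.418 FPKM, and Slc22a14 was listed at 0.

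None of the 13 SLC22 members for organic anions and urate reached 1 FPKM. Of these, 9 were listed at 0 in all libraries, among them Slc22a6 and Slc22a8, the OAT1 and OAT3 genes of the kidney, and Slc22a12, which encodes the renal urate carrier URAT1. The highest value in the group belonged to Slc22a13, at 0.061 FPKM in large, 0.838 in upper and 0.047 in lower small intestine.

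Of the SLCO members, 4 were measured, and they did not share 1 profile. Slco2a1, on chromosome 9 at 102988712 to 103096002 (plus strand), encodes the prostaglandin uptake carrier. It was at 21.6 FPKM in large intestine, 13.1 in upper and 17.8 in lower small intestine, and its large to upper ratio was 1.64 (1.50 to 1.81). A ribosomal RNA gene on the opposite strand overlaps its exons. Slco2a1 is known from endothelium too. The 5 endothelial markers summed to 2.52 FPKM in large, 2.42 in upper and 3.47 in lower small intestine. Most of each sum came from Pecam1, at 1.31, 0.93 and 1.37 FPKM in large, upper and lower, and from Lyve1, at 1.18, 1.25 and 2.07 FPKM. Cdh5 and Kdr were at or below 0.033 FPKM in every library and Tek at or below 0.202 FPKM. The part of endothelial cells in the Slco2a1 values was not tested. Slco2b1, a carrier of steroid sulfates and drugs, was at 3.88 FPKM in large intestine, 18.2 in upper and 13.9 in lower small intestine, with a large to upper ratio of 0.213 (0.105 to 0.389). Antisense genes overlap its exons.

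Slco3a1, a carrier of prostaglandins and thyroxine, was at 0.157 FPKM in large intestine, 4.08 in upper and 5.36 in lower small intestine. About 1 implied read of the shortest coding transcript (656 nt, longest 4589 nt) lay behind the large intestinal value. The large to lower ratio was 0.029 (0.00083 to 0.198). Slco4a1, which carries thyroid hormones and taurocholate, was at 2.76 FPKM in large, 5.10 in upper and 6.56 in lower small intestine. Its difference of -1.01 in large against lower intestine passed the rule narrowly and did not after rescaling to equal sums. The other 11 SLCO members were below 1 FPKM, 7 of them listed at 0 in all libraries. The Slco1 genes, known from liver and brain barrier, reached at most 0.296 FPKM.

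Many unmeasured members lay in gene clusters. Members lying within 500000 bases of each other formed 9 clusters holding 31 genes, of which 8 reached 1 FPKM and 13 were listed at 0 everywhere. Of the 25 members outside clusters, 14 reached 1 FPKM and 6 were listed at 0 everywhere. Clusters of other gene families were not counted, so no all-gene share stands beside these counts. The SLC22 cluster on chromosome 19 at 7673061 to 8628299 held 8 members, none above 0.168 FPKM. The Slco1 cluster on chromosome 6 at 141524368 to 142322981 held 6, none above 0.296 FPKM. The carnitine cluster on chromosome 11 was the only 1 of the 9 with 3 measured members.

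Promoters of measured members differed in base composition from those of members listed at 0. RefSeq promoters (GRCm38.p6, the assembly of mm10) were found for 45 of 56 members, and the 250 bases before each start were read. Some of these starts lay far from the GENCODE start, by 175158 bases for Slc22a14, 22372 for Slco1a6 and 19775 for Slco2a1. The G and C content ranged from 52.8% to 78.4% over 14 members at 1 FPKM or more (median 65.8%), and from 25.6% to 55.6% over 18 members listed at 0 (median 42.0%). Over all genes with a promoter, the medians were 59.6% at 1 FPKM or more and 44.8% for those listed at 0. The observed to expected ratio of CpG reached 0.6 in 9 of the 14 members (64.3%) and in 2 of the 18 (11.1%). Over all genes with a promoter, these shares were 66.3% of 9503 genes at 1 FPKM or more and 10.5% of 4361 genes listed at 0. The members' shares thus lay near those of all genes. Among the 14, Slc22a18 had the lowest ratio, with no CpG in its 250 bases and a level of up to 55.95 FPKM.

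**Figure D4:**
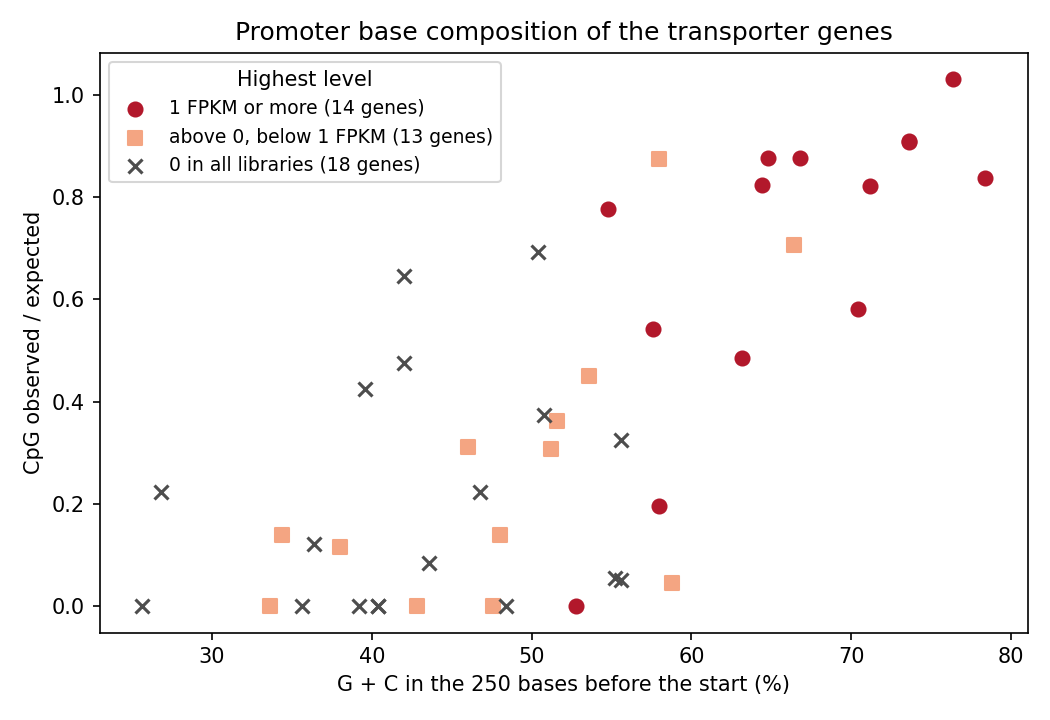
G and C content of the 250 bases before the start (horizontal axis, %) against the observed to expected CpG ratio (vertical axis), 1 point per member with a RefSeq promoter, marked by its highest level in any library. The 14 members at 1 FPKM or more lie at 52.8% G and C or above, and no member listed at 0 in all libraries lies above 55.6%.

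Promoters of 4 members are shown because they pair opposite regional profiles, Slc16a1 and Slc22a23 highest in large intestine, Slc16a10 and Slc22a4 lowest there. They are written 5′ to 3′ and end at the base before the start. Capitals mark matches, on either strand, to 5 motifs searched in the same window of all 27025 promoters. These were the GC box (GGGCGG, in 32.9% of all promoters), the CCAAT box (CCAAT, 34.5%), the TATA box (TATAAA, 12.97%), the E-box (CACGTG, 6.05%) and the GATA motif (GATAAG, 6.60%). None of these letter strings is contained in another.
Slc16a1, chr3:104638414-104638663, plus strand: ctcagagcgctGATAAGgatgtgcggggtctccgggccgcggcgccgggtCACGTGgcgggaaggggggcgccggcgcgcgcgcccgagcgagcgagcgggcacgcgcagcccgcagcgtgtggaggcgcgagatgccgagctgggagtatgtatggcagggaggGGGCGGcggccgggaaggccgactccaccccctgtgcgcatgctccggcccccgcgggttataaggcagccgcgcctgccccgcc
Slc22a23, chr13:34345219-34345468, minus strand: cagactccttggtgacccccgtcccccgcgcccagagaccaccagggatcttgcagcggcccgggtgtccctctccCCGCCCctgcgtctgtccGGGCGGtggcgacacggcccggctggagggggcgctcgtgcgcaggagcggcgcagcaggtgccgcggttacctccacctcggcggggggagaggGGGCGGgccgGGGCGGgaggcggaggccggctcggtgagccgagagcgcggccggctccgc
Slc16a10, chr10:40142255-40142504, minus strand: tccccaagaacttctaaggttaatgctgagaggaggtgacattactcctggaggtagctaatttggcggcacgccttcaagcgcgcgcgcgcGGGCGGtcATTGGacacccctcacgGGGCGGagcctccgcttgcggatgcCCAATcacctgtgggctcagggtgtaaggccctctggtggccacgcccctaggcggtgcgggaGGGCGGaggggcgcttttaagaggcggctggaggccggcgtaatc
Slc22a4, chr11:54028105-54028354, minus strand: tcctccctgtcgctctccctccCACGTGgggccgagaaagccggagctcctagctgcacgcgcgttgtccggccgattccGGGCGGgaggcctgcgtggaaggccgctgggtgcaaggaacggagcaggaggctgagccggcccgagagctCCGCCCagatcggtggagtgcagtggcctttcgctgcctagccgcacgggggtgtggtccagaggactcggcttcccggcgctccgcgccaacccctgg
All 4 held a GC box, which 71.4% of the 14 measured members and 58.4% of all genes at 1 FPKM or more held. Slc16a1 also held a GATA motif and an E-box, Slc16a10 a CCAAT box, and Slc22a4 an E-box. No motif of this set was present in both members of 1 profile and absent from both of the other.

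Genes that work with monocarboxylate carriers were counted from a list of 10. In large against upper 2 were higher and 1 lower, where 11.2% and 11.7% of all measured genes were. In large against lower intestine 2 were higher and 2 lower, where 9.75% and 10.5% of genes were. Slc5a8, a sodium-coupled carrier of butyrate and lactate, was at 104 FPKM in large intestine, 4.24 in upper and 39.7 in lower small intestine. Slc5a12, its low affinity relative, was at 0.067 FPKM in large, 59.8 in upper and 16.7 in lower small intestine, an opposite order. Bsg, which encodes the chaperone basigin that brings MCT1 and MCT4 to the membrane, was chosen after its values were seen. It was at 448 FPKM in large, 451 in upper and 354 in lower small intestine, all within 2-fold. Emb, which encodes embigin, a relative of basigin, was at 0.768 FPKM in large, 1.04 in upper and 3.20 in lower small intestine. Ldhb, a lactate dehydrogenase subunit, was at 4.68 FPKM in large intestine against 0.343 in upper and 0.383 in lower small intestine, while Ldha was at 592, 941 and 747 FPKM.

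The carnitine shuttle, which takes long-chain fatty acids into mitochondria, was divided. In large against upper 3 of 9 measured were higher and 5 lower, where 11.2% and 11.7% of all measured genes were. In large against lower intestine 2 of 8 were higher and 1 lower, where 9.75% and 10.5% of genes were. Slc25a20, the mitochondrial carnitine carrier, was at 93.6 FPKM in large, 22.4 in upper and 26.1 in lower small intestine. Cpt1a, the entry enzyme, was at 99.03 FPKM in large, 43.8 in upper and 50.9 in lower small intestine. Slc6a14, which also carries carnitine, was at 382 FPKM in large, 0.039 in upper and 6.15 in lower small intestine. Bbox1, the last enzyme of carnitine synthesis, was at 0.077 FPKM in large, 16.7 in upper and 0.178 in lower small intestine. Aldh9a1, another enzyme of carnitine synthesis, was at 27.9 FPKM in large, 167 in upper and 143 in lower small intestine, and was the 1 gene lower in large against lower intestine. Crot, a peroxisomal carnitine acyltransferase, was at 19.5 FPKM in large, 56.3 in upper and 29.5 in lower small intestine. Crat, the carnitine acetyltransferase, was at 15.2 FPKM in large, 36.3 in upper and 13.7 in lower small intestine.

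**Figure D5:**
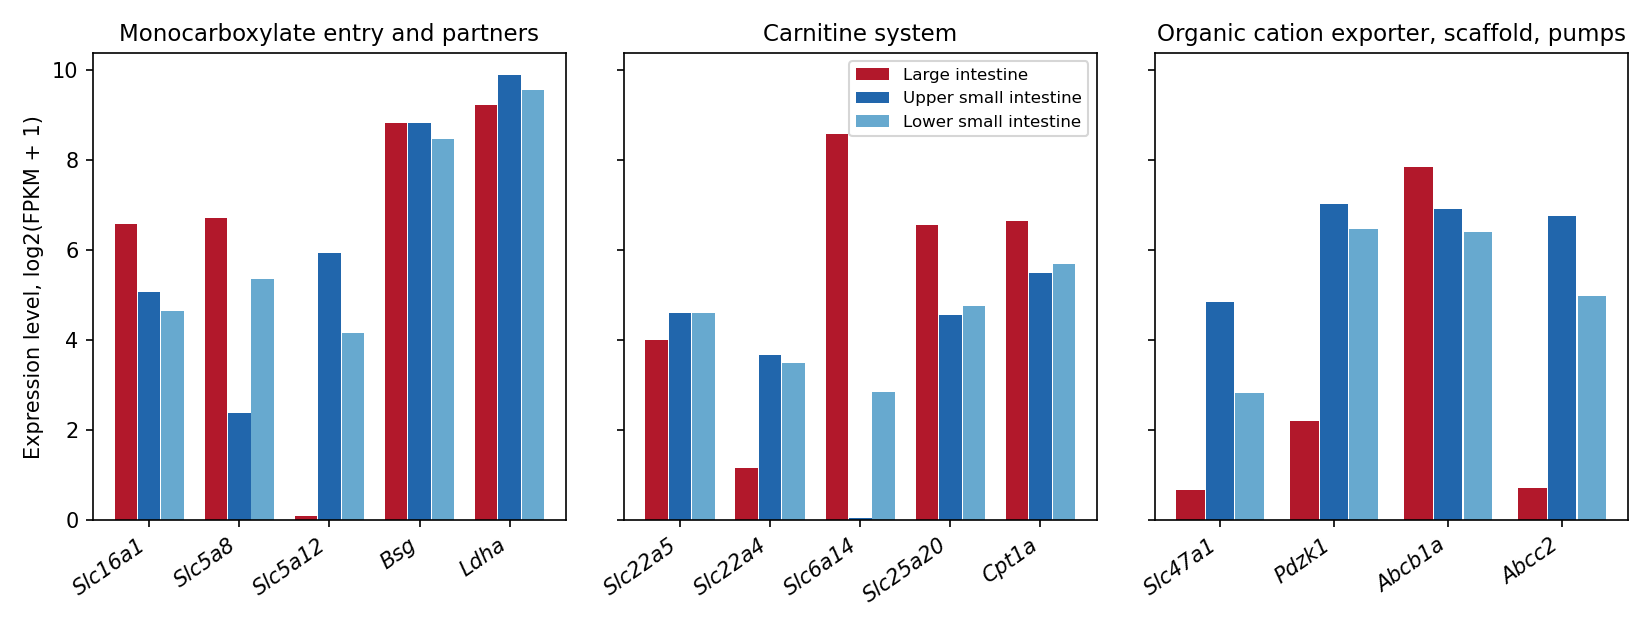
Expression level, log2(FPKM + 1), of carriers and partner genes in large, upper and lower intestine (bars from 0, 1 library each). Slc16a1, Slc5a8, Slc6a14, Slc25a20 and Cpt1a are tallest in large intestine, and Slc5a12, Slc22a4, Slc47a1, Pdzk1 and Abcc2 are shortest there.

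Prostaglandin handling genes, partners of Slco2a1, had 1 of 8 measured higher and 1 lower in large against upper. In large against lower intestine 3 were higher and 1 lower. Of all measured genes, 11.2% were higher and 11.7% lower against upper, and 9.75% and 10.5% against lower. Hpgd, which inactivates prostaglandins inside the cell, was at 182 FPKM in large, 129 in upper and 54.95 in lower small intestine. Cbr1, a carbonyl reductase, was at 322 FPKM in large, 227 in upper and 54.7 in lower small intestine. Abcc4, a pump that exports prostaglandins, was the gene higher in large against upper, at 3.05 FPKM in large, 0.308 in upper and 0.92 in lower small intestine. Ptgr1, a prostaglandin reductase, was at 10.4 FPKM in large, 76.4 in upper and 34.8 in lower small intestine.

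Brush-border PDZ scaffolds, which bind tails of OCTN and other carriers, had 3 of 5 lower and 1 higher in large intestine in both comparisons. Of all measured genes, 11.2% were higher and 11.7% lower against upper, and 9.75% and 10.5% against lower. Pdzk1 was at 3.63 FPKM in large, 128 in upper and 87.7 in lower small intestine, Slc9a3r1 at 164, 636 and 536 FPKM, and Pdzd3 at 15.6, 34.1 and 32.5 FPKM. Slc9a3r2 was the higher one, at 4.55 FPKM in large, 0.985 in upper and 1.31 in lower small intestine. Drug efflux pumps had 3 of 8 higher and 2 lower in large intestine in both comparisons, beside the same all-gene shares. Abcc2, which exports organic anion conjugates, was at 0.652 FPKM in large, 108 in upper and 30.6 in lower small intestine. Abcc3, its basolateral relative, was at 104 FPKM in large, 30.7 in upper and 24.6 in lower small intestine. Abcc3 and Abcc4 were higher in large intestine in both comparisons, Abcc1 against upper (8.93, 3.13 and 4.31 FPKM in large, upper and lower) and Abcb1a, the P-glycoprotein gene, against lower (229, 119 and 83.3 FPKM). Besides Abcc2, Abcc6 was lower against upper (3.35, 9.30 and 2.60 FPKM) and Abcg2 against lower (33.3, 42.8 and 72.5 FPKM).

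Of 14 transcription factors known to act on carrier genes, 2 were higher and 3 lower in large against upper. In large against lower intestine 1 was higher and 1 lower. Of all measured genes, 11.2% were higher and 11.7% lower against upper, and 9.75% and 10.5% against lower. Pparg was at 54.4 FPKM in large, 12.2 in upper and 3.21 in lower small intestine. Hnf4g was at 16.9 FPKM in large, 152 in upper and 78.1 in lower small intestine. Nr1h3, the oxysterol receptor LXR alpha, was at 10.7 FPKM in large, 34.1 in upper and 21.7 in lower small intestine. Nr1i3, the drug sensor CAR, was at 3.62 FPKM in large, 58.2 in upper and 7.95 in lower small intestine. In upper against lower small intestine 2 were higher and 1 lower, where 3.92% and 2.92% of all measured genes were. The lower one was Nr1h4, the bile acid receptor, at 39.9 FPKM in large, 14.9 in upper and 63.1 in lower small intestine.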

How the data were processed

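RNA was measured by stranded mRNA sequencing (TruSeq kit, per the labels' protocols) in 3 libraries, 1 per region. The authors deposited 1 value per gene and library. It is taken here as FPKM, since the headers give no unit and Cufflinks 2.2.1 is the sole quantifier among the tools named. Per the submitters' processing notes, TopHat2 2.0.13, SAMtools 0.1.19, Bowtie2 2.2.3 and the build mm10 were also used, with no role stated. The annotation and the strand setting of counting were not given in the sources used here.

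Sums of the deposited FPKM were 521651 in large, 693218 in upper and 646262 in lower small intestine, with median ratios to the geometric mean of 1.00, 0.999 and 1.01. Depth was estimated from genes with 1 transcript of at least 1500 nt. There, FPKM times length fell within 0.15 read of a whole multiple of a fitted step in 71.3%, 74.2% and 69.4% of 401, 387 and 441 genes, too few for a count test. The steps imply about 8375210, 7293950 and 10952900 reads, totals that are uncertain if values were rescaled. Intervals cover counting error only.

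All 56 members matched GENCODE M21 (GRCm38). A pseudocount of 1 FPKM, a minimum of 1 FPKM and a 2-fold rule of size were used on the whole table. Every member at 1 FPKM or more in 1 library was named, except 1 that is not reported here but is in the counts, and from partner lists up to 4 genes of largest difference per comparison, including each of those past the 2-fold rule. Members and lists were chosen with earlier results of these data known. Partner lists overlap in Abcc4. Scripts ran in Python 3.11.15 with SciPy 1.17.1 and were tested on simulated data.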

Additional observations from a re-analysis of the deposited data

How the results depend on the processing

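No paired analysis was possible because each region has 1 library and no test was run, and leaving out a replicate was likewise not possible. Counts of members higher or lower stayed within 1.5 times of the reported ones with a pseudocount of 0.1 and under all 3 rescalings. Dropping the filter could not change them, since a gene below 1 FPKM in both libraries cannot differ 2-fold in FPKM + 1. With a filter of 5 FPKM, 3 of 17 members were higher in large against lower and 3 of 16 in upper against lower small intestine. Of all genes measured with that filter, 9.55% and 4.26% were higher in these comparisons. With a 3-fold rule, which 5.77%, 4.74% and 1.80% of all measured genes passed as higher, 0 members were higher in large against upper, 2 in large against lower and 2 in upper against lower. Lower were 7 and 6 of 22 in large against upper and lower, where 6.01% and 5.28% of genes were, and 0 in upper against lower, where 1.21% were. By that rule 0 and 1 members were highest in large and in upper intestine, since the other called members lay between 2- and 3-fold in FPKM + 1, a scale on which ratios of low genes are smaller. Without the 28 members whose span overlaps another gene, which leaves 10 measured, 0 were higher and 4 lower in large against upper, 0 higher and 4 lower in large against lower, and 1 higher in upper against lower. Most of these overlaps lie in introns. Without the 8 members whose exons overlap another gene, an alternative chosen after seeing the data, 16 members were measured in each comparison. Of these, 2 were higher and 6 lower in large against upper, and 3 higher and 6 lower in large against lower. In upper against lower, 3 were higher and 0 lower. For both of these reduced sets, 11.2% of all measured genes were higher and 11.7% lower in large against upper. The shares were 9.75% and 10.5% in large against lower, and 3.92% and 2.92% in upper against lower. Every member called higher in large intestine (Slc16a1, Slc16a7, Slc16a9, Slc16a12 and Slc22a23) has a span that overlaps another gene, so leaving out such spans removed all of them. Of 30 calls on named members, 3 were lost with equal sums (among them Slco4a1 in large against lower and Slc16a12 in upper against lower) and 1 gained (Slco2a1, large against upper). None changed direction, which shifts smaller than the rule could not bring about. With short RNA genes left out of the sums, the calls on Slco4a1 and Slc16a12 were again lost. Values resting on 1 to 4 implied reads of the shortest coding transcript, such as large intestinal Slc16a3, Slc47a1 and Slco3a1, are uncertain. Longer transcripts of these genes would imply more reads.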
